A study of Mus musculus with 8 samples.

Results

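The genes followed here are 9 that write, erase or read methylated cytosine in mouse DNA, namely the methyltransferase genes *Dnmt1*, *Dnmt3a* and *Dnmt3b*, the maintenance factor *Uhrf1*, the dioxygenase genes *Tet1*, *Tet2* and *Tet3*, and the methyl-CpG binding genes *Mbd1* and *Mbd2*. They were found by their gene symbol among the 29092 genes of an mRNA-seq count table, where each symbol matched 1 gene. All 9 passed the filter on low counts that 18866 genes passed. The counts came from 4 libraries of GFP+ enteric neural crest-derived cells (ENCDCs) and 4 libraries of GFP- gut cells, that is, the other cells of the same bowels. The bowels were taken at E13.5 from *Ednrb-EGFP* embryos of labelled genotype wild-type, which carry a GFP reporter driven by *Ednrb* regulatory sequence, so both populations share the reporter, the age and the dissociation, and differ in whether the cells made GFP. Where yields required it, the authors combined RNA of several dissections, so the p-values measure the spread between these libraries.

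DNA methylation in mammals sits mostly on the cytosine of CpG. *Dnmt3a* and *Dnmt3b* encode the enzymes that place it on unmethylated DNA, while *Dnmt1* encodes the enzyme that copies it to the new strand after replication, brought there by UHRF1, which recognises hemimethylated CpG. TET enzymes oxidise methylated cytosine, a step towards its removal, and MBD proteins bind methylated CpG and bring chromatin repressors. In neural crest and in neurons these enzymes are known for their part in the passage from dividing progenitor to differentiated cell. mRNA levels say nothing of the methylation itself, which was not measured.

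The libraries were even in depth, with 13250893 to 13264785 counts in ENCDCs and 13257119 to 13267220 in gut cells, since the authors had brought them to a common depth. The labelled cell types matched their defining markers. The summed count of 6 enteric crest and neuron markers, among them *Ret*, *Sox10* and *Tubb3*, was 76167 to 88259 in ENCDCs and 2839 to 3306 in gut cells. Gut cells are a mixture, and each of 6 lists of other cell types was higher there for all of its members. The summed count of 6 mesenchyme and smooth muscle markers was 4197 to 24768 in ENCDCs and 162925 to 194936 in gut cells, and that of 4 erythroid markers was 170 to 509 and 31383 to 46866. The sums in ENCDCs and gut cells were 216 to 446 and 1872 to 2898 for 4 epithelial markers, 62 to 134 and 732 to 1049 for 4 endothelial markers, 53 to 138 and 1276 to 2579 for 3 mesothelial markers, and 484 to 905 and 3196 to 7219 for 4 leukocyte markers. No list summed to 0 in ENCDCs, though the leukocyte gene *Ptprc* had 0 counts in replicates 1 to 3 and 1 count in replicate 4, and the endothelial gene *Tek* had 0 counts in replicates 1 and 2. ENCDC replicate 3 stood apart from the other 7 libraries on the second principal component (11.4% of the variance) and had the highest mesenchyme and muscle sum of the ENCDC samples, so results that move with it are given without it.

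ENCDCs and gut cells differed in 3 of the 9 genes. *Uhrf1* was higher in ENCDCs, *Dnmt3a* and *Mbd2* were lower, and the other 6 did not pass the test (edgeR's quasi-likelihood test, Benjamini-Hochberg adjusted p under 0.05 over all tested genes). Among all 18866 tested genes, 37.9% were called, 17.0% as higher in ENCDCs and 20.9% as lower, so 3 calls among 9 genes is close to the background. The populations did not overlap for 4 of the 9 genes, the 3 called ones and *Tet1*, against 37.3% of all tested genes. The median log2 fold change (ENCDC over gut) was -0.06 over the 9 genes and -0.04 over all tested genes. The median size of the log2 fold change, regardless of sign, was 0.26 over the 9 genes and 0.60 over all tested genes. In a bulk library, a lower count from fewer expressing cells cannot be told apart from less RNA per cell.

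**Figure D1:**
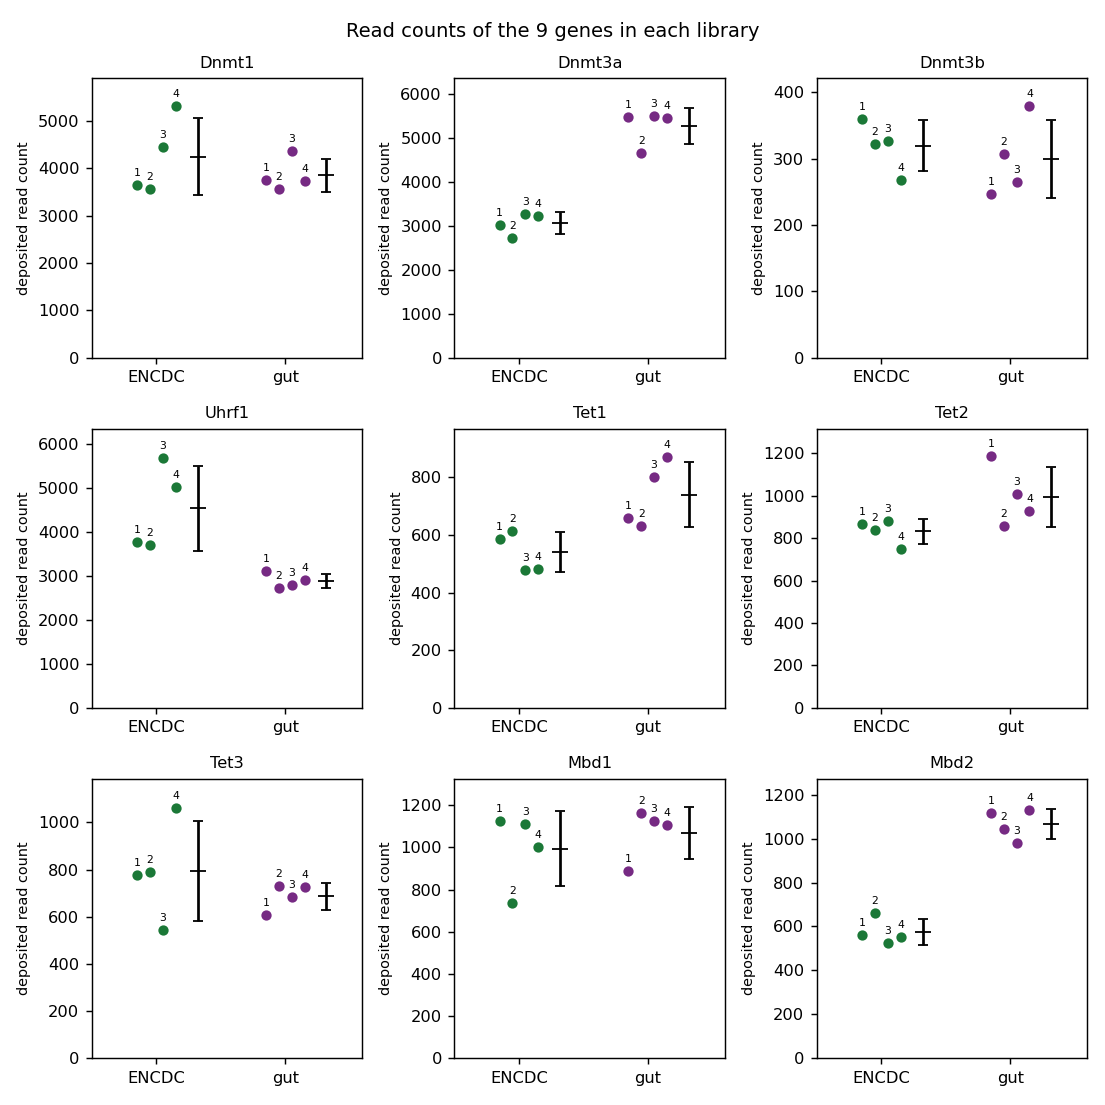
Deposited read counts (vertical axes, starting at 0) of the 9 genes in the 4 ENCDC libraries (left, green) and the 4 gut libraries (right, purple) of each panel, with the replicate number above each point and the mean ± SD beside the points. Uhrf1 lies higher in every ENCDC library, Dnmt3a, Mbd2 and Tet1 lie lower in every ENCDC library, and the points of the other 5 genes overlap.

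Maintenance of methylation was represented by *Uhrf1* and *Dnmt1*, and the populations differed in *Uhrf1* but not detectably in *Dnmt1*. *Uhrf1* (ENSMUSG00000001228, chromosome 17, 56303321 to 56323486, plus strand, GRCm38) had 3765, 3716, 5685 and 5022 counts in ENCDC replicates 1 to 4, against 3107, 2733, 2797 and 2911 counts in gut replicates 1 to 4. The ENCDC samples fell into a lower pair, replicates 1 and 2, and a higher pair, replicates 3 and 4, all of them above every gut sample. Its mean was 4547 ± 970 counts in ENCDCs and 2887 ± 164 counts in gut cells (n = 4 libraries each, SD), a log2 fold change of 0.70 with a standard error of 0.135 (1.63-fold, adjusted p = 0.00182 from edgeR). Replicate 3, which held the most mesenchyme and muscle transcripts among the ENCDC samples, was also the highest for *Uhrf1*. Without it the log2 fold change was 0.59 (adjusted p = 0.00165 from edgeR).

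*Dnmt1* (ENSMUSG00000004099, chromosome 9, 20907209 to 20959888, minus strand, GRCm38) had 3649, 3562, 4450 and 5316 counts in ENCDCs, against 3760, 3565, 4357 and 3728 counts in gut cells. The gut range lay inside the ENCDC range, with ENCDC replicates 3 and 4 above every gut sample and replicate 2 just below them. The mean was 4244 ± 819 counts in ENCDCs and 3853 ± 347 counts in gut cells (n = 4 libraries each, SD), a log2 fold change of 0.19 with a standard error of 0.134 (adjusted p = 0.299 from edgeR). Both maintenance genes varied more among ENCDC than among gut libraries. The coefficient of variation was 21.3% in ENCDCs and 5.68% in gut cells for *Uhrf1*, and 19.3% in ENCDCs and 9.01% in gut cells for *Dnmt1*.

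Genes of S phase, *Uhrf1* and *Dnmt1* among them, are classically driven by E2F factors, so the promoter windows of RefSeq (GRCm38.p6, from 250 bases before to 50 after the start site) were searched on both strands for 4 E2F-type words, TTTCCCGC, TTTCGCGC, TTTGCCGC and TTTGGCGC, which were chosen after the values had been seen. A window was in hand for 7 of the 9 genes. Only *Uhrf1* and *Dnmt1* held a word, as did 2.26% of the 32851 windows searched and 4.27% of tested genes with a window. Of 19 DNA replication genes with a window, 8 held a word. The words were found as follows, in capitals within 30 bases of context on the strand of the gene:
*Uhrf1*, chr17:56304117-56304146, plus strand: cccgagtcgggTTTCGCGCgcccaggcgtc
*Dnmt1*, chr9:20952824-20952853, minus strand: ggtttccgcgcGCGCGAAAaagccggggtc
The *Uhrf1* word began 185 bases before the start site, in no annotated exon of the gene. The *Dnmt1* word read TTTCGCGC on the opposite strand, began 219 bases before this start site and lay within an exon of another annotated transcript of the gene. *Dnmt1* held a further word, TTTGGCGC, 33 bases after the start site. CpG, the dinucleotide that these enzymes act on, was counted in the same windows, of which some genes have several. There were 57 CpG in the window of *Tet2*, 30 in that of *Dnmt3b*, 22 in that of *Tet3* and 17 in that of *Tet1*. The windows of *Dnmt3a* held 46, 47 and 18 CpG, those of *Uhrf1* 12 and 33, and those of *Dnmt1* 33, 12 and 2, against a median of 7 over all windows searched. All windows searched belong to 27025 genes, of which 12558 were tested, and no median over tested genes alone is given. The words in *Uhrf1* and *Dnmt1* lay in the windows with 33 CpG. A match describes letters and is no measured binding site, and the gene with a called difference and the gene without one both held a match.

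DNA replication genes provide a scale for genes that follow the cell cycle, and *Uhrf1* stood higher on it in ENCDCs. Of 24 replication genes tested, 5 were higher in ENCDCs, 3 were lower and 16 did not pass the test. The share called was 33.3%, against 37.9% of all tested genes, and the median log2 fold change was 0.20. The higher ones included *Rrm1* (0.45) and *Rrm2* (0.54), subunits of the ribonucleotide reductase that makes deoxynucleotides, and *Mcm2* (0.32), a subunit of the replicative helicase. *Mcm4* (-0.60) and *Mcm6* (-0.23), also helicase subunits, and *Ccne1* (-0.35), the cyclin E1 gene, were lower. The mean log2 CPM of the 24 genes was 7.32, 7.29, 7.35 and 7.29 in ENCDC replicates 1 to 4, against 7.10, 7.32, 7.23 and 7.19 in gut replicates 1 to 4, so the populations overlapped.

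The level of *Uhrf1* above that mean, on the log2 scale, was 0.86, 0.86, 1.40 and 1.32 in ENCDCs, against 0.73, 0.35, 0.47 and 0.58 in gut cells, with no overlap. For *Dnmt1* the same difference was 0.81, 0.80, 1.05 and 1.40 in ENCDCs, against 1.00, 0.73, 1.11 and 0.93 in gut cells, with overlap. Within each library, *Uhrf1* had 1.77, 1.79, 2.20 and 1.62 counts per kb of exon for each count per kb of *Dnmt1* in ENCDCs, against 1.42, 1.32, 1.10 and 1.34 in gut cells. The ratio of these partners was thus higher in each ENCDC library than in any gut library. These ratios and differences are given as a description, without a test.

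**Figure D2:**
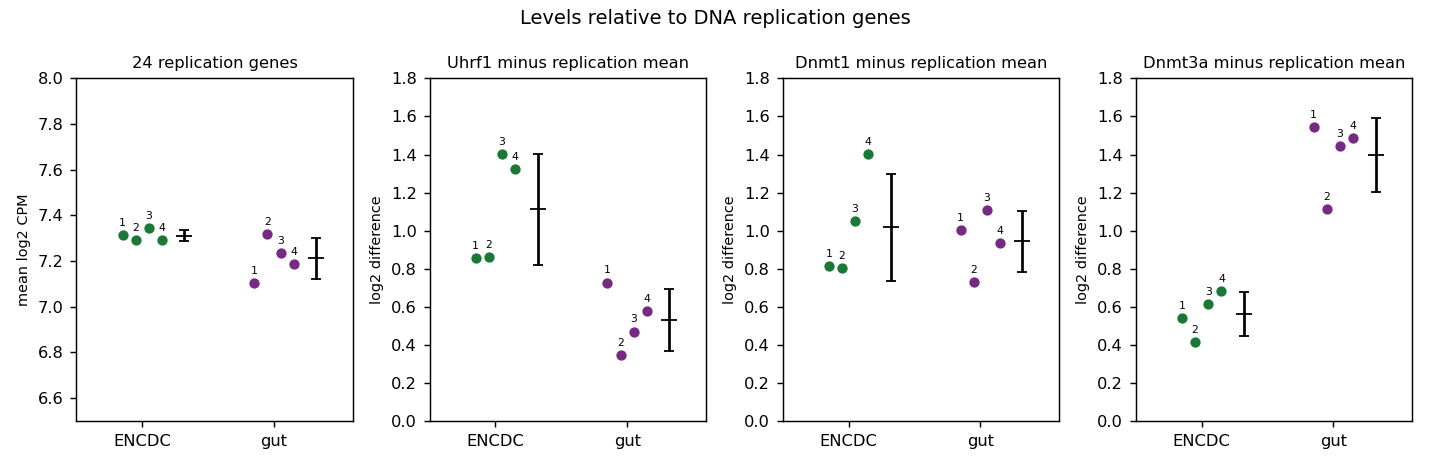
Left panel, mean log2 CPM of 24 DNA replication genes in each library (axis from 6.5 to 8). Other panels, the log2 difference of Uhrf1, Dnmt1 and Dnmt3a from that mean, with ENCDC libraries left in green, gut libraries right in purple, replicate numbers above the points and mean ± SD beside them. The populations overlap for the replication genes and Dnmt1, and separate upwards for Uhrf1 and downwards for Dnmt3a.

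New methylation was represented by *Dnmt3a* and *Dnmt3b*, and *Dnmt3a* was lower in ENCDCs. *Dnmt3a* (ENSMUSG00000020661, chromosome 12, 3806007 to 3914443, plus strand, GRCm38) had 3022, 2721, 3284 and 3223 counts in ENCDCs, against 5484, 4654, 5503 and 5463 counts in gut cells. The lowest gut sample, replicate 2, was still above the highest ENCDC sample. The mean was 3063 ± 254 counts in ENCDCs and 5276 ± 415 counts in gut cells (n = 4 libraries each, SD), a log2 fold change of -0.74 with a standard error of 0.0926 (adjusted p = 9.47e-05 from edgeR). Gut cells had 1.67 times the ENCDC level. The mixed cell types of the gut sort, whose markers are given above, moved with this difference, and their part in it was not tested. Relative to the replication genes, *Dnmt3a* stood 0.54, 0.41, 0.61 and 0.68 higher in ENCDCs, against 1.55, 1.12, 1.45 and 1.49 higher in gut cells, on the log2 scale.

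*Dnmt3b*, known for methylation of pericentromeric repeats and for a prevalence in early embryos, was far less abundant and differed less than its spread. It had 360, 322, 327 and 267 counts in ENCDCs, against 247, 307, 265 and 379 counts in gut cells. Every ENCDC value lay inside the gut range. The log2 fold change was 0.14 with a standard error of 0.190 (adjusted p = 0.613 from edgeR). *Dnmt3b* has a related tandem copy in rodents, *Dnmt3c*, a gene known from male germ cells, and some reads could fit both. *Dnmt3c* had 9, 7, 20 and 10 counts in ENCDCs, against 3, 4, 0 and 0 counts in gut cells, which is small beside *Dnmt3b*. How reads that fit both genes were counted was not examined, so these counts do not bound such reads.

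*Dnmt3a* passed the test and its relatives did not, and the make-up of the methyltransferase transcripts differed between the populations. Each ratio and share given here contains *Dnmt3a*, so its lower level enters all of them. They are not separate results, and the counts of *Dnmt1* itself overlapped. *Dnmt3a* had 3.66, 3.69, 4.38 and 5.27 counts per kb for each count per kb of *Dnmt3b* in ENCDCs, against 9.69, 6.62, 9.06 and 6.29 in gut cells. Per kb, *Dnmt1* exceeded *Dnmt3a* by a factor of 1.90, 2.06, 2.13 and 2.59 in ENCDCs, against 1.08, 1.21, 1.25 and 1.07 in gut cells. In both ratios the populations were apart. *Dnmt3a* made up 29.4 ± 2.15% of the summed counts per kb of the 3 methyltransferase genes in ENCDCs and 43.9 ± 1.71% in gut cells, and *Dnmt1* made up 63.4 ± 3.72% in ENCDCs and 50.4 ± 2.08% in gut cells (n = 4 libraries each, SD, no overlap for either). The share of *Dnmt3b* was 7.14 ± 1.61% in ENCDCs and 5.74 ± 1.22% in gut cells, with overlap. The sum itself was 1056 ± 143 counts per kb in ENCDCs and 1213 ± 83.1 in gut cells, also with overlap.

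**Figure D3:**
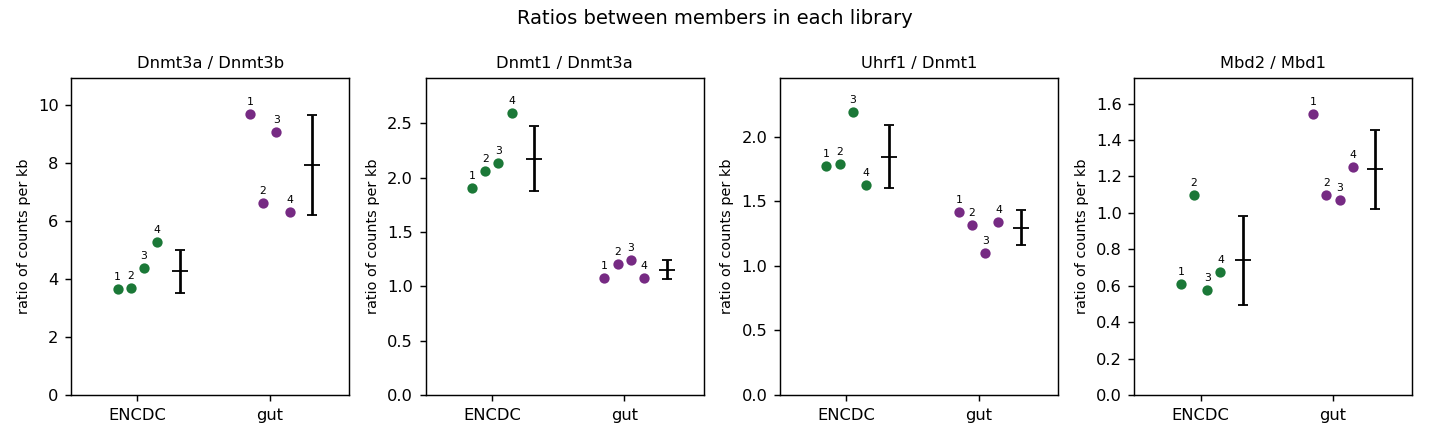
Ratios of counts per kb of exon in each library (vertical axes from 0), for Dnmt3a over Dnmt3b, Dnmt1 over Dnmt3a, Uhrf1 over Dnmt1 and Mbd2 over Mbd1, with ENCDC libraries left in green, gut libraries right in purple, replicate numbers above the points and mean ± SD beside them. The populations are apart in the first 3 ratios and overlap in the fourth, where ENCDC replicate 2 reaches 1.10.

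None of the *Tet* genes passed the test, and *Tet1* was the closest to it. *Tet1*, which carries a CXXC domain and is best known from pluripotent and germ cells, had 587, 613, 479 and 482 counts in ENCDCs, against 659, 631, 800 and 869 counts in gut cells. All ENCDC samples lay below all gut samples, though ENCDC replicate 2 (613) and gut replicate 2 (631) nearly touched. The mean was 540 ± 69.8 counts in ENCDCs and 740 ± 114 counts in gut cells (n = 4 libraries each, SD), a log2 fold change of -0.41 with a standard error of 0.153 (adjusted p = 0.0570 from edgeR). Its side of the threshold depended on the tool and the scaling, as DESeq2 gave an adjusted p of 0.0183 and edgeR with RLE factors 0.0383, while voom and limma gave 0.0574.

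*Tet2*, the family member without a CXXC domain of its own, had 867, 838, 879 and 747 counts in ENCDCs, against 1186, 855, 1010 and 930 counts in gut cells. The groups overlapped, with a log2 fold change of -0.21 and a standard error of 0.122 (adjusted p = 0.213 from edgeR). *Tet3*, known from the oocyte and from neurons, had 775, 790, 545 and 1062 counts in ENCDCs, against 605, 728, 684 and 726 counts in gut cells. It spread the most among ENCDC samples, replicate 3 lying below every gut sample and the other 3 above, with a log2 fold change of 0.26 and a standard error of 0.187 (adjusted p = 0.308 from edgeR). Single ENCDC libraries decided its value, as leaving out replicate 3, the lowest, gave *Tet3* a log2 fold change of 0.41 (adjusted p = 0.0411 from edgeR) and leaving out replicate 4, the highest, gave 0.08 (adjusted p = 0.739 from edgeR).

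The summed level of the 3 *Tet* genes was 196 ± 13.7 counts per kb in ENCDCs and 218 ± 12.9 counts per kb in gut cells (n = 4 libraries each, SD), with overlap. Shares of that sum in ENCDCs and gut cells were 19.2 ± 2.12% and 23.6 ± 3.01% for *Tet1*, 46.6 ± 6.15% and 49.5 ± 5.22% for *Tet2*, and 34.2 ± 7.30% and 26.9 ± 3.50% for *Tet3*, all with overlap. *Tet2* had the highest mean per kb of the 3 in both populations, but in ENCDC replicate 4 it made up 39.6% of the sum and *Tet3* 44.1%, and in ENCDCs the ranges of *Tet2* (81.2 to 95.5 counts per kb) and *Tet3* (46.4 to 90.5 counts per kb) overlapped. The methyltransferase sum was 5.43 ± 0.882 times the *Tet* sum in ENCDCs and 5.56 ± 0.213 times in gut cells (n = 4 libraries each, SD).

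Of the readers, *Mbd2* was lower in ENCDCs and *Mbd1* was not detectably different. *Mbd2* (ENSMUSG00000024513, chromosome 18), whose protein recruits the NuRD complex to methylated DNA, had 560, 663, 522 and 553 counts in ENCDCs, against 1118, 1042, 980 and 1129 counts in gut cells. The groups were well apart, and the spread within each was small. The mean was 574.5 ± 61.3 counts in ENCDCs and 1067 ± 69.9 counts in gut cells (n = 4 libraries each, SD), a log2 fold change of -0.84 with a standard error of 0.118 (adjusted p = 2.04e-04 from edgeR). Gut cells had 1.79 times the ENCDC level. The same mixture of cell types in the gut sort moved with this difference, and its part was not tested.

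*Mbd1*, whose protein binds methylated CpG and has a CXXC zinc finger as well, had 1125, 738, 1112 and 1004 counts in ENCDCs, against 888, 1163, 1124 and 1107 counts in gut cells. The groups overlapped, with ENCDC replicate 2 and gut replicate 1 at the low end. The log2 fold change was -0.06 with a standard error of 0.151 (adjusted p = 0.797 from edgeR) and turned to 0.06 without ENCDC replicate 2 (adjusted p = 0.745 from edgeR). Per kb, *Mbd2* stood at 0.610, 1.10, 0.575 and 0.675 of *Mbd1* in ENCDCs, against 1.54, 1.10, 1.07 and 1.25 in gut cells. Only ENCDC replicate 2, where *Mbd1* was low, reached the gut range.

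**Figure D4:**
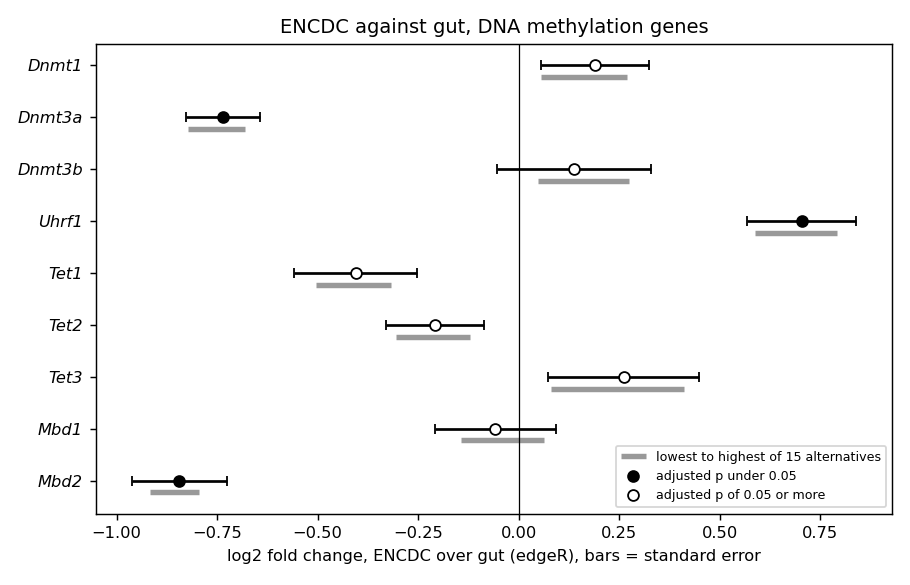
Log2 fold change of ENCDC over gut (horizontal axis) for each of the 9 genes, with the standard error from edgeR as a black bar, a filled point for an adjusted p under 0.05 and an open point otherwise, and a grey bar from the lowest to the highest value under 15 alternative settings. Uhrf1 lies at 0.70, Dnmt3a at -0.74 and Mbd2 at -0.84, and the grey bar crosses 0 for Mbd1 alone.

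Per kb of exon (union of GENCODE M21 exons), the order of levels was similar but not the same in both populations. In ENCDCs it ran from *Uhrf1* (1240 ± 265 counts per kb) over *Dnmt1* (674 ± 130), *Mbd1* (331 ± 59.8), *Dnmt3a* (309 ± 25.6), *Mbd2* (235 ± 25.0), *Tet2* (90.5 ± 6.49), *Dnmt3b* (73.7 ± 8.91) and *Tet3* (67.6 ± 18.0) to *Tet1* (37.6 ± 4.86). Neighbours whose libraries overlapped were *Mbd1* and *Dnmt3a*, *Tet2* and *Dnmt3b*, and *Dnmt3b* and *Tet3*. In gut cells it ran from *Uhrf1* (787 ± 44.8 counts per kb) over *Dnmt1* (611 ± 55.1), *Dnmt3a* (532 ± 41.9), *Mbd2* (436 ± 28.5), *Mbd1* (357 ± 41.3), *Tet2* (108 ± 15.4), *Dnmt3b* (69.2 ± 13.6) and *Tet3* (58.4 ± 4.90) to *Tet1* (51.5 ± 7.90, all SD, n = 4). There, *Dnmt3b* overlapped with *Tet3* and *Tet3* with *Tet1*. *Mbd1* thus followed *Dnmt1* in ENCDCs and *Mbd2* in gut cells, while the maintenance genes led and *Tet1* closed both orders.

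The study predicted targets of 5 miRNAs among the genes present in ENCDCs, and 5 of the 9 genes are on these lists. *Dnmt3a* and *Mbd2*, the genes called lower, are on the list of miR-137, *Uhrf1* on that of miR-9, *Tet1* and *Tet3* on those of miR-27b and miR-124, and *Tet3* on that of miR-488. *Dnmt1*, *Dnmt3b*, *Tet2* and *Mbd1* are on none. By the paper's count, most genes found by mRNA-seq are on none of the 5 lists. The list of miR-137 holds 1038 IDs. Whether 5 of 9 genes is more than the share of all genes was not tested, nor was the shared list of *Dnmt3a* and *Mbd2*. A miRNA pairs with a 3' UTR through its seed, bases 2 to 8, shown in capitals in the mature sequences from RefSeq. No seed is shared among them.
miR-137-3p: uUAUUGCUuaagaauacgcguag
miR-9-5p: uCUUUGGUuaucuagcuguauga
miR-27b-3p: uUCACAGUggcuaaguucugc
miR-488-3p: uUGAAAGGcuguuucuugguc
These arms were taken because their seed match lay in the 3' UTR of most genes on the list. A match was to bases 2 to 8, or to bases 2 to 7 followed by A. Only the 3' UTR of the longest annotated coding transcript of each gene was searched. It held a match in 91.4%, 92.4%, 94.3% and 85.3% of the genes on the list, in the order shown, and in 13.6%, 19.2%, 24.7% and 20.2% of 21864 genes. The matches are in capitals on the strand of the gene, each within 30 bases of 3' UTR (GRCm38), and by their letters alone they are predictions.
*Dnmt3a*, miR-137-3p, chr12:3908796-3908825, plus strand: tatccagactcgcgtGCAATAAccttagaa
*Uhrf1*, miR-9-5p, chr17:56323317-56323346, plus strand: ttcttttgtaactttACCAAAGtgtgcagg
*Tet3*, miR-27b-3p, chr6:83367063-83367092, minus strand: gaagttgaacccaagCTGTGAAgagccagt
*Tet3*, miR-488-3p, chr6:83367666-83367695, minus strand: gaaagtttatagtgtCCTTTCAcaaaggag
*Tet1*, miR-27b-3p, chr10:62812326-62812355, minus strand: aagggtgaatacttaACTGTGAttacattt
The *Dnmt3a* match pairs with bases 2 to 7 followed by A, 1064 bases into a 3' UTR of 6696 bases. The 3' UTR searched for *Mbd2*, 480 bases, held no miR-137-3p match, and other transcripts of the gene were not searched. *Tet1* held 3 matches to miR-27b-3p, of which 1 is shown. The 3' UTR searched had 7955 bases in *Tet1*, 5669 in *Tet3* and 984 in *Uhrf1*. In the genes on no list it had 3058 bases in *Tet2*, 1331 in *Dnmt3b*, 734 in *Mbd1* and 312 in *Dnmt1*. The part of this length in the matches was not tested. Matches also occurred in genes that are not on the list of the miRNA, namely to miR-137-3p in *Uhrf1* and *Tet1*, to miR-9-5p in *Dnmt3a* and *Tet1*, to miR-27b-3p in *Mbd1*, and to miR-488-3p in *Dnmt3a*, *Tet1*, *Tet2* and *Mbd1*. The paper picked the 5 miRNAs as enriched in ENCDCs over gut cells, by small RNA sequencing of the sorted cells. The miRNAs themselves were not measured in the mRNA libraries used here, and whether they bear on the levels was not tested.

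Among other methyl-CpG readers, 3 of 10 were higher in ENCDCs, 1 was lower and 6 did not pass the test. The share called was 40.0%, against 37.9% of all tested genes, and the median log2 fold change was 0.04. *Mbd3*, whose protein takes the place of MBD2 in NuRD and has lost most of its affinity for methylated DNA in mammals, was higher with 4037, 4158, 4263 and 3951 counts in ENCDCs, against 2958, 2966, 2830 and 3265 counts in gut cells (log2 fold change 0.50, standard error 0.0788, adjusted p = 4.97e-04 from edgeR). *Zbtb38*, a zinc finger gene (0.72), was higher too. *Zfp57*, whose protein keeps methylation at imprinted regions, was lower (-0.59).

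*Mbd2* and *Mbd3* thus moved in opposite directions. The count of *Mbd2* for each count of *Mbd3* was 0.139, 0.159, 0.122 and 0.140 in ENCDCs, against 0.378, 0.351, 0.346 and 0.346 in gut cells, a ratio chosen after the values of the genes were seen and given without a test. Other NuRD subunits went both ways. Of 13 NuRD genes, *Mbd3* included, 4 were higher in ENCDCs, 3 were lower and 6 did not pass the test. The share called was 53.8%, against 37.9% of all tested genes, and the median log2 fold change was 0.23. *Rbbp4* (0.43) was higher and its relative *Rbbp7* (-0.59) lower, both histone-binding subunits. *Hdac2* (0.40), a histone deacetylase gene, was higher, and *Chd3* (-0.61), a remodelling ATPase gene, and *Mta3* (-0.78), a scaffold gene, were lower.

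Most genes that work with the methyltransferases did not pass the test. Of 13 tested, 2 were called, both as higher in ENCDCs, and 11 did not pass the test. The share called was 15.4%, against 37.9% of all tested genes, and the median log2 fold change was 0.09. The higher ones were *Trim28* (0.29), the scaffold through which KRAB zinc finger proteins silence repeats and keep imprints, and *Cdca7l* (0.45), a relative of the partner of the remodeller HELLS. *Hells* itself had 1381, 1518, 1140 and 1497 counts in ENCDCs, against 1162, 1061, 1345 and 1524 counts in gut cells, and was not called. *Dnmt3l* was not analysed here, and *Dppa3*, a regulator of UHRF1 in oocytes, had 0 counts in every ENCDC library and too few in gut cells to be tested.

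Genes that assist or follow TET oxidation differed in both directions. Of 18 tested genes of TET cofactors and base excision repair, 9 were higher in ENCDCs, 4 were lower and 5 did not pass the test, 72.2% called against the 37.9% of all tested genes, with a median log2 fold change of 0.47. *Idh1*, which makes the alpha-ketoglutarate that TET enzymes consume, had 4603, 5534, 4615 and 5001 counts in ENCDCs, against 2211, 2383, 1940 and 1998 counts in gut cells (log2 fold change 1.26, standard error 0.0997, adjusted p = 2.67e-06 from edgeR). *Tdg*, the glycosylase gene for the oxidised bases that TET enzymes leave, had 1925, 1978, 1665 and 2087 counts in ENCDCs, against 1056, 1135, 1059 and 1201 counts in gut cells (log2 fold change 0.83, standard error 0.107, adjusted p = 1.07e-04 from edgeR). Both were apart in every library.

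*Parp1*, which senses DNA strand breaks, was also higher (0.44), although its populations overlapped. The lower genes were *Gadd45a* (-1.04) and *Gadd45b* (-3.77), stress genes tied to active demethylation, *Cxxc4* (-1.29), a CXXC domain gene next to *Tet2*, and *Apobec1* (-4.63), a cytidine deaminase gene of the gut epithelium. *Gadd45g*, named after its values were seen, went the other way with 735, 830, 700 and 699 counts in ENCDCs, against 174, 195, 103 and 209 counts in gut cells (log2 fold change 2.17, adjusted p = 1.45e-05 from edgeR). The epithelial markers above moved with *Apobec1*, as did the markers of every other cell type listed there for the gut sort. Their part in it was not tested.

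Of 14 genes of methyl donor supply, 3 were higher in ENCDCs, 1 was lower and 10 did not pass the test, 28.6% called, with a median log2 fold change of 0.07. *Shmt2* (0.37) and *Shmt1* (0.61), which pass carbon units from serine to folate, and *Ahcyl2* (0.76), a relative of the hydrolase that clears S-adenosylhomocysteine, were higher. *Mat2b* (-0.50), the regulatory subunit of the enzyme that makes S-adenosylmethionine, was lower.

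Germline genes whose promoters are known to be kept silent by methylation had low counts, *Tdrkh* excepted. Of 16 on the list, 13 were matched by symbol and 7 could be tested. *Tdrkh*, a gene of the piRNA pathway, had 1581, 1703, 1349 and 1459 counts in ENCDCs, against 165, 141, 135 and 96 counts in gut cells (log2 fold change 3.55, standard error 0.171, adjusted p = 7.22e-08 from edgeR). *Piwil2*, a Piwi gene, had no count in ENCDCs against 69, 6, 8 and 21 counts in gut cells, and *Slc25a31*, the germ cell ADP/ATP carrier gene, none against 9, 8, 9 and 15 counts. Both passed the low-count filter through the gut libraries alone, so lower in ENCDCs was the only call open to them, and gut replicate 1 held most of the *Piwil2* counts. The other 10 had at most 57 counts in any library.

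**Figure D5:**
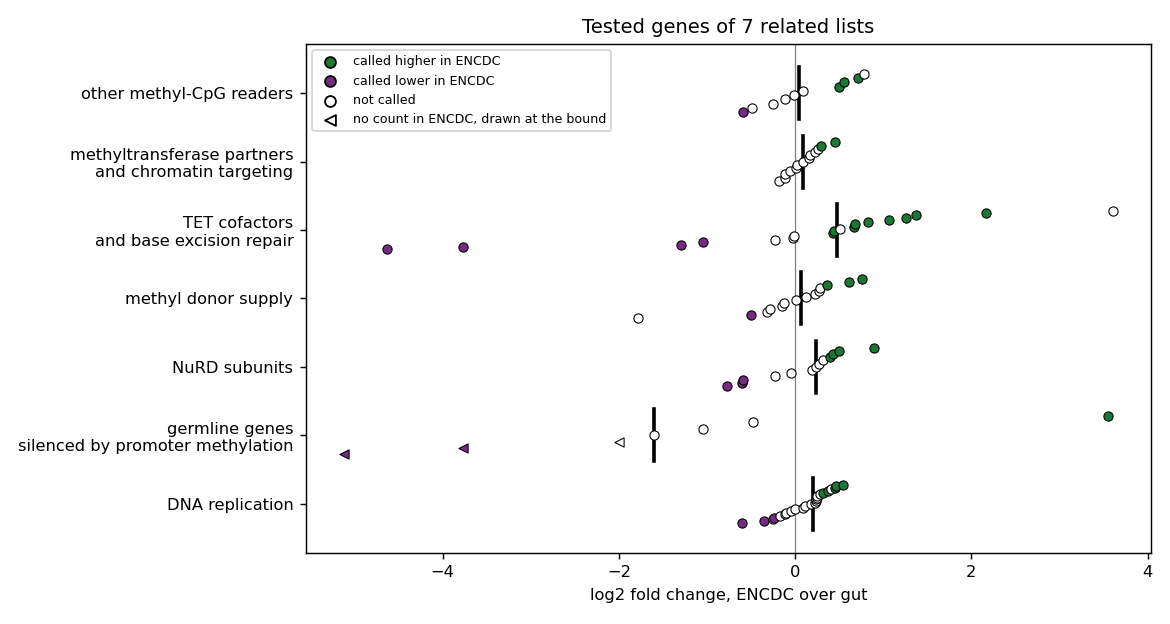
Log2 fold change of ENCDC over gut (horizontal axis) for the tested genes of 7 related lists, with green for genes called higher in ENCDCs, purple for genes called lower, white for genes not called, triangles for genes with no count in ENCDCs, set at 3 counts over the 4 ENCDC libraries, and a black bar at the list median. The list of TET cofactors and base excision repair has the median farthest above 0 (0.47), and Tdrkh stands alone at 3.55 among germline genes.

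For each of the 9 genes, the 2 most alike over the 8 libraries were picked. The 10926 candidates averaged at least 100 counts, and the highest Pearson correlations of log2 CPM were with *Nploc4* (r = 0.994) and *Ganab* (0.991) for *Uhrf1*, *Lrpprc* (0.993) and *1700017B05Rik* (0.993) for *Dnmt3a*, and *Nlrx1* (0.994) and *Brinp1* (0.992) for *Mbd2*. For genes that were not called, they were with *Gtf3c1* (0.976) and *Ltbp1* (0.970) for *Dnmt1*, *Elp4* (0.964) and *2310009A05Rik* (0.908) for *Dnmt3b*, *Hspa5* (0.975) and *Lims1* (0.962) for *Tet1*, *Pcf11* (0.922) and *Tpp1* (0.916) for *Tet2*, *Clip2* (0.973) and *Msh6* (0.954) for *Tet3*, and *Rbfox2* (0.915) and *9130011E15Rik* (0.896) for *Mbd1*. The libraries share 2 populations, a split that alone gives high values for the called genes, and these values are descriptions. Picking the highest of 10926 candidates over 8 libraries also gives high values for unrelated genes, called or not. What chance alone would give was not tested.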

How the data were processed

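mRNA-seq libraries (SMARTer and NexteraXT kits, which keep no strand) were made by the authors from sorted cells. The deposited values are whole-number read counts, which the authors obtained with STAR 2.4.2a on mm10 and PORT normalization to a common depth. The series text names small RNAs and CPM, but labels, paper and values describe mRNA counts. Genes that averaged 3 counts or more, and had counts in 3 or more of 4 libraries, in either population were tested with edgeR 4.0.16 (TMM, quasi-likelihood F test) in R 4.3.3, tables being handled in Python 3.11.15. Limma 3.58.1 with voom, DESeq2 1.42.0, RLE or no factors, other filters, a replicate block and leaving out each library were alternatives. Of 29092 gene IDs, 29035 matched GENCODE M21 for exon lengths. Sequences came from RefSeq tables and GRCm38. The tests were checked on simulated counts.

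The 9 genes, the related lists and the markers were chosen with earlier results of these data known. Named from each list are at most 3 called genes, those with the highest counts, and any that moved against its majority, and for each of the 9 genes the 2 most alike. Some genes that this rule picks are left unnamed. No sequence of *Mbd1* or *Mbd2* is shown. The small RNA libraries were not analysed here.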

Additional observations from a re-analysis of the deposited data

Results flagged for a closer look

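In 56 groups of 4 libraries, a sample was set against the other 3 by Dixon's test, and 3 samples lay outside, where chance gives about 1 in 20 groups. For *Dnmt3a*, gut replicate 2 had 4654 counts, while the other gut samples had 5463 to 5503. For the summed *Tet* level, ENCDC replicate 3 had 175.3 counts per kb, while the other ENCDC samples had 201 to 205 counts per kb. In gut cells, replicate 2 had a *Tet* sum of 198.8 counts per kb, while the others had 223 to 226 counts per kb. Without gut replicate 2 the log2 fold change of *Dnmt3a* was -0.82 (adjusted p = 1.12e-04 from edgeR).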

How the results depend on the processing

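*Uhrf1*, *Dnmt3a* and *Mbd2* kept their direction and their call under all 15 alternatives, with log2 fold changes of 0.59 to 0.79, -0.82 to -0.68 and -0.92 to -0.79. *Dnmt1* (0.06 to 0.27), *Dnmt3b* (0.05 to 0.27) and *Tet2* (-0.30 to -0.12) kept their direction and stayed uncalled. *Tet1* was called by DESeq2 (-0.45), with RLE factors (-0.45), with no factors (-0.45), with a mean count of at least 10 (-0.43) and without gut replicate 2 (-0.50, adjusted p = 0.0335 from edgeR), its range without single libraries being -0.50 to -0.32. *Tet3* was called without ENCDC replicate 3 alone, with a range without single libraries of 0.08 to 0.41, so 1 to 2 of the 9 genes were called higher and 2 to 3 lower. *Mbd1* ranged from -0.14 to 0.06 without single libraries and changed sign without ENCDC replicate 2 (0.064). Libraries with the same replicate number did not deviate together (correlations of 0.01, 0.03, -0.01 and 0.00). Noise of single libraries also gives low correlations, so this check cannot show whether the numbers pair libraries of the same bowels. With a replicate block in the edgeR model, *Uhrf1* was at 0.68, *Dnmt3a* at -0.74 and *Mbd2* at -0.85, the same 3 genes were called, and 5933 of all tested genes were called in place of 7158. The cause of these shifts was not tested. Counts near 300, as for *Dnmt3b*, and 4 libraries a population limit what differences can be seen.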
